A study of Mus musculus with 3 samples.

Results

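The genes described here are those of the nuclear genome that encode oxidative phosphorylation, the respiratory chain and ATP synthase of mitochondria. They were chosen by symbol alone: every row beginning with Nduf, Uqcr or Atp5, or with Cox followed by 4 to 8, and Sdha, Sdhb, Sdhc and Sdhd, without symbols containing -ps. The rule took 93 of 39179 genes, 92 of them protein-coding and 1 (Atp5l2) a processed pseudogene. The RNA came from white fat of C57BL/6 mice that carried a Flag-FTO transgene, aged 16 weeks and fasted overnight. FTO takes methyl groups off adenosines in RNA, and Flag is a short peptide tag by which an antibody can pull the protein down together with bound RNA. The Flag-IP group is 2 libraries made with the anti-Flag M2 antibody, and the IgG-IP group is 1 library made with IgG from the same kind of mouse, so every mouse carried the transgene. The promoter of the transgene, the fat depot and the number of animals per library were not stated in the labels used here.

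Complexes I to IV pass electrons from NADH and succinate to oxygen. Complexes I, III and IV pump protons across the inner mitochondrial membrane, and complex V lets the protons back to make ATP. Complexes I, III, IV and V are built from subunits of both the nuclear and the mitochondrial genome, whereas complex II is nuclear throughout. In fat, mitochondria are scarcer in white than in brown adipocytes, and several cytochrome c oxidase subunits exist as tissue isoforms.

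The libraries held 98227791, 95824218 and 74176962 counts, in the order Flag-IP 1, Flag-IP 2 and IgG-IP, which is the order of every triplet of counts below. After scaling (TMM, a factor that aligns the bulk of the genes), 1 read count equalled 1.08, 0.99 and 0.94 normalized counts, so raw counts below can be read almost directly against each other. Fto itself had 230, 291 and 300 counts, and this gene does not check the labels because the antibody targets the protein. White adipocyte markers summed to 2441, 1894 and 406 normalized counts. Without Aqp7, a glycerol channel with 1932, 1631 and 196 counts, the sums were 361, 279 and 221. Cidec, a lipid droplet protein and the next most counted marker, had 117, 93 and 152 counts, and Adipoq had 18, 14 and 3. Of 9 tested white adipocyte markers 3 were higher in Flag-IP, and of 7 tested skeletal muscle markers 2 (Ckm and Tnnt3) were higher. Over all tested genes 5.58% were called higher. Of 3 tested brown or beige markers 1 was higher (Prdm16), of 5 endothelial and 3 macrophage markers edgeR called none (nor did any have an unadjusted p under 0.05), and no erythroid marker was tested. The muscle markers summed to 224, 130 and 90.4 normalized counts, and their part in the results below was not tested.

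Counts of the nuclear oxidative phosphorylation genes were low, and most did not separate the immunoprecipitates. Of the 93 genes, 66 had a mean under 10 counts, 15 reached 20 and 5 reached 50. Of the low genes 3 had no count in any library (Atp5k, Atp5l2 and Cox8c). The filter on low counts (edgeR's filterByExpr with a minimum of 10) kept 50, and the highest count among the 43 left out was 10. In edgeR's quasi-likelihood test with Benjamini-Hochberg adjustment over all 17587 tested genes (threshold 0.05), 2 were higher in Flag-IP (Ndufv2 and Atp5o), where 5.58% of all tested genes were called higher. A further 2 were lower (Ndufab1 and Cox7b2), where 5.77% of all tested genes were called lower. Those shares are near the background, so the counts of calls say nothing particular about these genes. Both Flag-IP libraries stood above IgG-IP for 16 of the 50 and below it for 21 (40.5% and 39.0% of all tested genes). At an unadjusted p under 0.05, 4 were higher and 3 lower, where 12.9% and 11.8% of all tested genes were. DESeq2 called Atp5o alone among the 50 and gave an adjusted p for only 1 other, Ndufaf2. The median log2 fold change was -0.14, against 0.03 over all tested genes, and the median standard error was 0.87. Leaving out Atp5o, the 92 genes summed to 1047, 981 and 1034 normalized counts, and the IgG-IP sum lay between the Flag-IP sums. Because IgG-IP is 1 library, the spread in every test comes from the Flag-IP libraries alone, and the labels do not say whether those came from separate animals.

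**Figure D1:**
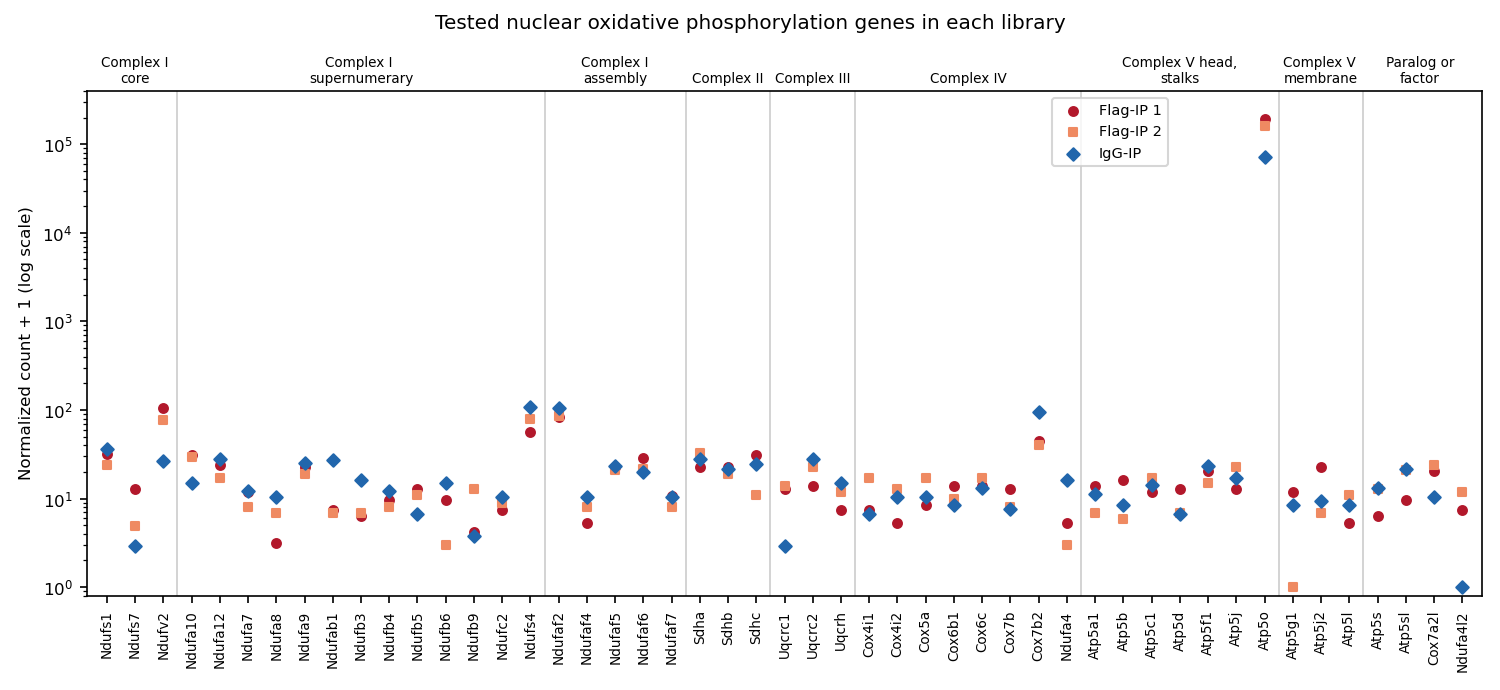
Normalized count plus 1 (log scale) of 49 tested genes in each library, grouped by complex, with circles and squares for the Flag-IP libraries and diamonds for IgG-IP. Atp5o stands far above all the others in every library, and the next highest value is that of Ndufs4 in IgG-IP, at 115 raw counts.

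The promoters of these genes are shown because the nuclear subunits are a textbook case of shared control by the transcription factors NRF1, GABP (an ETS factor) and YY1. RefSeq windows of 300 bases (250 before the transcription start to 50 after, GRCm38.p6) were matched for 76 of the 93 genes and searched on both strands. The NRF1 core GCGCATGC was found in 12 of 76, or 15.8%, against 3.94% of 17492 protein-coding genes. The ETS core CCGGAAG was in 17 of 76, or 22.4%, against 12.9%, and the YY1 core AAGATGGC was in 11 of 76, or 14.5%, against 3.57%. A match to letters is a description and not a bound site. In all, 34 of the 76 held at least 1 of the 3, or 44.7%, against 18.7% of the 17492 protein-coding genes. A gene with several starts was counted when any of its windows matched. Below is 1 window per complex, chosen after its matches were seen, from 150 bases before the start to 30 after, with each match in capitals. Capitals in Ndufa11 are overlapping NRF1 cores on opposite strands, those in Sdhb an NRF1 core and then an ETS core, those in Uqcr11 an ETS core and then an NRF1 core, those in Cox6b1 an ETS core, and those in Atp5j a YY1 core and then an ETS core.
Ndufa11 promoter, chr17:56717612-56717791, plus strand: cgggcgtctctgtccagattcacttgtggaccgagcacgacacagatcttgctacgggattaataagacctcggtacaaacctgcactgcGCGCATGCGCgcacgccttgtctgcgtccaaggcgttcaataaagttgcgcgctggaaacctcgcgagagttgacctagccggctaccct
Sdhb promoter, chr4:140961121-140961300, plus strand: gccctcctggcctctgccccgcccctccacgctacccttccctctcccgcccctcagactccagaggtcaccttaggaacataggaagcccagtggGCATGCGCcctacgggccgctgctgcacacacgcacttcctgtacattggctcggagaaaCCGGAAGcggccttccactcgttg
Uqcr11 promoter, chr10:80406792-80406971, minus strand: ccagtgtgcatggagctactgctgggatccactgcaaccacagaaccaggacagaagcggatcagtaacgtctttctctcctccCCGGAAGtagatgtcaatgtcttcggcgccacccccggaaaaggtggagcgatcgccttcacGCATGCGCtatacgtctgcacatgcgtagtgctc
Cox6b1 promoter, chr7:30626085-30626264, minus strand: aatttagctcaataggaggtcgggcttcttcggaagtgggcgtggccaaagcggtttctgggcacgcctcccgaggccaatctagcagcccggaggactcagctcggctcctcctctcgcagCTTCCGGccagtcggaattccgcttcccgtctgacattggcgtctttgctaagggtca
Atp5j promoter, chr16:84834947-84835126, minus strand: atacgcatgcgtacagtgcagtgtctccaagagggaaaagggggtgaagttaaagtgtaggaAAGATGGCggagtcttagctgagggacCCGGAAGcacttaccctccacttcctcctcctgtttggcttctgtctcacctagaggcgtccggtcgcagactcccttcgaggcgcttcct
The 16 tested genes with a match had a median log2 fold change of -0.22 and no call by edgeR (Atp5o left out), and the 22 tested genes without one had -0.24, with 1 higher and 2 lower.

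Complex I is the NADH dehydrogenase, and its core nuclear subunits carry the flavin and the iron-sulfur clusters. Ndufv2, a core iron-sulfur subunit, had 96, 76 and 27 counts. Both Flag-IP libraries were high and IgG-IP low. Its log2 fold change was 1.80 ± 0.38 (SE; adjusted p = 0.000104, edgeR quasi-likelihood). The gene spans chr17:66078638-66101559 (GRCm38) and holds an annotated small nuclear RNA, Gm23264, that had 0 counts in each library. Its neighbour Ankrd12 had 73, 79 and 105 counts and was not called. Of the other 6 core genes 3 were tested, and edgeR called none of them, nor did any have an unadjusted p under 0.05. Ndufs1, the largest of the core subunits, had 29, 23 and 37 counts, and both Flag-IP libraries were below IgG-IP. Ndufs7, which carries an iron-sulfur cluster near the quinone site, had 11, 4 and 2 counts, with both above. Without Ndufv2, the core genes summed to 77.5, 61.4 and 55.6 normalized counts.

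Supernumerary subunits of complex I surround the core and take no direct part in the redox chemistry. Of 29 such genes 13 were tested, with 0 higher and 1 lower, and at an unadjusted p under 0.05 there were 0 higher and 2 lower (11.8% of all tested genes were lower at that p). Ndufab1, which doubles as the mitochondrial acyl carrier protein, had 6, 6 and 28 counts. Both Flag-IP values were low and equal. Its log2 fold change was -2.07 ± 0.73 (SE; adjusted p = 0.0450, edgeR), close to the threshold. Ndufab1 passed the filter on low counts through IgG-IP alone, the library where it was high, so nothing is drawn from its call. The call was lost with the GC trend removed (-1.81, adjusted p = 0.180, edgeR). Ndufs4, a subunit whose loss causes severe complex I deficiency, had 52, 78 and 115 counts. Both Flag-IP libraries lay below IgG-IP, but the fold change of -0.70 ± 0.30 (SE) did not pass (adjusted p = 0.115, edgeR). Ndufa10 had 28, 29 and 15 counts and was the reverse case. Its log2 fold change of 1.05 ± 0.56 (SE) did not pass either (adjusted p = 0.229, edgeR). Among the 13 tested, both Flag-IP libraries were below IgG-IP for 10 and above for 3 (Ndufa10, Ndufb5 and Ndufb9). Over all tested genes 39.0% were below and 40.5% above. The filter could be passed through 1 library, and at a lower count in IgG-IP, the smallest library. Ndufa8, with 2, 6 and 10 counts, and Ndufab1 passed through IgG-IP alone, while Ndufa5, with 10, 8 and 4, did not pass. The split therefore depends in part on the filter, and nothing is drawn from it. Complex I subunits as a whole summed to 465, 402 and 415 normalized counts, and without Ndufv2 to 362, 327 and 390.

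Assembly factors of complex I whose symbols begin with Ndufaf build the complex and are not part of it. Of 7 such genes 5 were tested and none was called by edgeR, nor at an unadjusted p under 0.05. Ndufaf2, which spans 155909 bases, had 77, 86 and 110 counts, the most of this group. Both Flag-IP values were below IgG-IP, with a log2 fold change of -0.30 ± 0.29 (SE). Ndufaf6 had 26, 21 and 20 counts and was the 1 tested factor with both Flag-IP values above IgG-IP after scaling, and Ndufaf5 had 20, 20 and 24.

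Complex II, succinate dehydrogenase, joins the tricarboxylic acid cycle to the chain, and none of its 3 tested genes was called by edgeR. Sdha, the flavin subunit, had 20, 32 and 29 counts. Sdhb, the iron-sulfur subunit, had 20, 18 and 22. Sdhc, a membrane anchor, had 28, 10 and 25. In each of these the IgG-IP value lay between the Flag-IP values after scaling, and the log2 fold changes ran from -0.25 to -0.03 with none at an unadjusted p under 0.05. Sdhc differed between the Flag-IP libraries, with -1.24 without Flag-IP 1 and 0.36 without Flag-IP 2. The other anchor, Sdhd, had 4, 10 and 2 counts, both Flag-IP values above IgG-IP, and was not tested. Together they summed to 77.5, 69.3 and 73.5 normalized counts.

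Complex III passes electrons from ubiquinol to cytochrome c, and 3 of its 8 nuclear genes were tested. Uqcrc1, a core protein of the matrix side, had 11, 13 and 2 counts. Both Flag-IP libraries were high, and the ratio of normalized counts was 6.57, with a 95% counting interval from 1.63 to 57.4. The log2 fold change of 2.64 ± 1.34 (SE) passed an unadjusted p of 0.05 but not the adjusted threshold (adjusted p = 0.199, edgeR). Uqcrc1 passed the filter on low counts through Flag-IP alone, the group where it was high. Its partner Uqcrc2 had 12, 22 and 29 counts and Uqcrh, the hinge protein, had 6, 11 and 15. In both, the Flag-IP values were below IgG-IP, and neither was called. The Rieske iron-sulfur protein Uqcrfs1, untested, had 4, 8 and 2 counts.

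Complex IV, cytochrome c oxidase, hands the electrons to oxygen, and 8 of its 18 nuclear genes were tested. Cox7b2, an isoform known from testis, had 40, 40 and 100 counts. Both Flag-IP libraries were low and IgG-IP was high. The log2 fold change was -1.19 ± 0.33 (SE; adjusted p = 0.00777, edgeR), and with the trend of fold change on transcript GC content removed it was -0.40 (adjusted p = 0.672, edgeR), so that the call was lost. Cox7b2 spans chr5:71442824-71548205, or 105382 bases, of which 542 are exonic, and its longest transcript has 36.7% GC. Ndufa4, named for complex I but a subunit of complex IV, had 4, 2 and 16 counts, and its log2 fold change of -2.23 ± 1.23 (SE) did not pass (adjusted p = 0.247, edgeR). It passed the filter on low counts through IgG-IP alone, the library where it was high. Without Cox7b2 the complex IV genes summed to 79.7, 100.0 and 78.2 normalized counts. Cox4i1, the ubiquitous form of the largest nuclear subunit, had 6, 16 and 6 counts. It lies inside the gene model Gm20388, which had 56326, 43668 and 32242 counts.

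Among the tissue isoforms of complex IV, Cox7b2 had the most counts and the others had 16 or fewer in any library. Cox7b, the general form, had 11, 7 and 7 counts, so that Cox7b2 made up 78.4% (exact 95% interval 64.7 to 88.7), 85.1% (71.7 to 93.8) and 93.5% (87.0 to 97.3) of the counts of this pair. Per kilobase of gene span the order turned: Cox7b had 1.75, 1.03 and 0.98 normalized counts and Cox7b2 0.41, 0.38 and 0.89. The general Cox4i1 and the lung form Cox4i2, with 4, 12 and 10 counts, were both tested and neither was called. Cox7a1 and Cox8b, markers of brown fat, had 3, 2 and 0 and 0, 2 and 0 counts. Their general forms Cox7a2 and Cox8a had 4, 4 and 0 and 0, 4 and 0, so the pairs could not be told apart at this depth. Cox6a1 had 4, 0 and 5 counts beside 2, 0 and 2 for the muscle form Cox6a2, and Cox6b1 had 12, 9 and 8 beside 2, 2 and 2 for the testis form Cox6b2. Intervals cover counting error only.

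ATP synthase, complex V, turns the proton gradient into ATP through a catalytic head, stalks and a membrane part. Of 16 genes 10 were tested, with 1 higher. Atp5o, a stalk subunit that confers oligomycin sensitivity, had 180251, 160403 and 77117 counts, and both Flag-IP values were above IgG-IP. The log2 fold change was 1.28 ± 0.29 (SE; adjusted p = 0.000571, edgeR), and with the trend on gene span removed, an alternative added after seeing the data, it was 0.68 (adjusted p = 0.115, edgeR). These counts cannot be assigned to Atp5o, so corrections that use its span or GC content cannot decide about them. Itsn1, which encodes an endocytic scaffold and lies on the opposite strand at chr16:91729281-91920597, had 180199, 160356 and 77062 counts, so Atp5o exceeded it by 52, 47 and 55. Atp5o at chr16:91925214-91931687 does not overlap Itsn1, but a second GENCODE model of the same name, chr16:91684398-91926982, spans it. The sources used here do not give the annotation on which the authors counted.

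The rest of complex V summed to 131, 90.1 and 106 normalized counts. The catalytic subunits Atp5a1 and Atp5b had 12, 6 and 11 and 14, 5 and 8 counts, and the IgG-IP value lay between the Flag-IP values in both. The stalk subunit Atp5f1 had 18, 14 and 24 counts, with both Flag-IP values below. Atp5j, another stalk subunit, had 11, 22 and 17 counts. It overlaps Gabpa, on the opposite strand, by 701 bases, of which 397 are exonic in both, and Gabpa had 8, 9 and 35. The proton-carrying c subunit is encoded by Atp5g1, Atp5g2 and Atp5g3, with 10, 0 and 8, 4, 4 and 6, and 4, 0 and 2 counts. No tested gene of complex V other than Atp5o was called by edgeR, and none had an unadjusted p under 0.05.

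A further 4 symbols fit the rule but are no subunit of the complexes. Cox7a2l, which helps join complexes into supercomplexes, had 18, 23 and 10 counts and a log2 fold change of 1.15 ± 0.69 (SE; adjusted p = 0.299, edgeR). Ndufa4l2, a paralog induced by hypoxia, had 6, 11 and 0 counts. Its mean Flag-IP value was 3.07 times a floor of 3 counts in IgG-IP, a ratio that leaves counting error out. The gene passed the filter on low counts through Flag-IP alone and was not called (adjusted p = 0.140, edgeR). It overlaps Shmt2 by 32 bases, and Shmt2 had 4, 7 and 2 counts. Atp5s and Atp5sl, both tied to assembly, had 5, 12 and 13 and 8, 20 and 22 counts, and neither was called. In all, 22 of the 93 genes overlapped another gene with at least 50% as many Flag-IP counts, so their counts are uncertain, and the calls of Ndufv2, Ndufab1 and Cox7b2 are not among these. The 22 include Ndufs1, Ndufb5, Uqcrc2, Cox6a2, Atp5a1 and Atp5f1, which were described above without their overlaps.

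**Figure D2:**
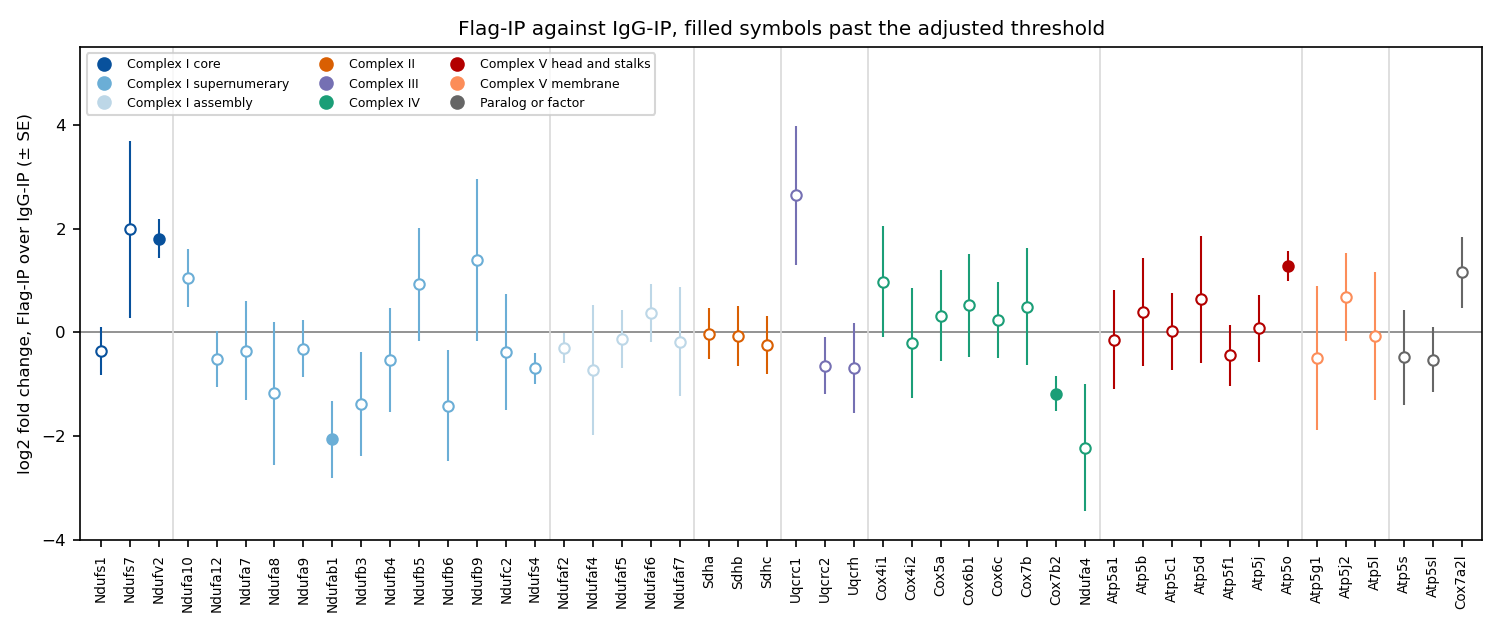
Log2 fold change of Flag-IP over IgG-IP, with bars of 1 standard error, for 48 tested genes by complex, with filled symbols for those past the adjusted threshold. Filled are Ndufv2 and Atp5o above 0 and Ndufab1 and Cox7b2 below, and Ndufa4l2 is left out because its IgG-IP count is 0.

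The level of a nuclear oxidative phosphorylation gene followed the length of the gene with its introns. Over the 92 genes without Atp5o, the Spearman correlation of the mean normalized count with gene span was 0.89, against 0.53 with exonic length. Over 20442 protein-coding genes with a count the values were 0.91 and 0.62. All points share the libraries and their depth. In single libraries the correlation with span over the 92 genes was 0.78, 0.77 and 0.84. The 19 genes under 3000 bases had a median of 1.95 normalized counts, the 25 of 6000 to 10000 bases had 7.81, and the 3 of 40000 or more (Cox7b2, Ndufs4 and Ndufaf2) had 80.5.

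Divided by span, the level of these genes was close to that of protein-coding genes in general. The median was 0.895 normalized counts per kilobase of span over the 93 genes, with quartiles of 0.627 and 1.10, against 0.804 over 21303 protein-coding genes, with quartiles of 0.611 and 1.04. By library the medians were 0.940, 0.827 and 0.811 for the 93 genes, against 0.781, 0.794 and 0.745. Cytosolic ribosomal protein genes had a median of 1.14 and olfactory receptor genes 0.118. Apart from Atp5o, Ndufv2 had the highest mean over the 3 libraries per kilobase of span, with 4.51, 3.28 and 1.11 normalized counts. All of its values lay above the medians of their libraries, those of Flag-IP by more than that of IgG-IP. Ndufab1 had 0.39, 0.36 and 1.60 and Cox7b2 0.41, 0.38 and 0.89. In both genes the Flag-IP values were under the medians of their libraries. The IgG-IP value of Ndufab1 was above its library's medians, and that of Cox7b2 only slightly so. Atp5sl, at 1.40, 3.23 and 3.38, and Atp5j, at 1.53, 2.81 and 2.06, were high in IgG-IP as well.

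**Figure D3:**
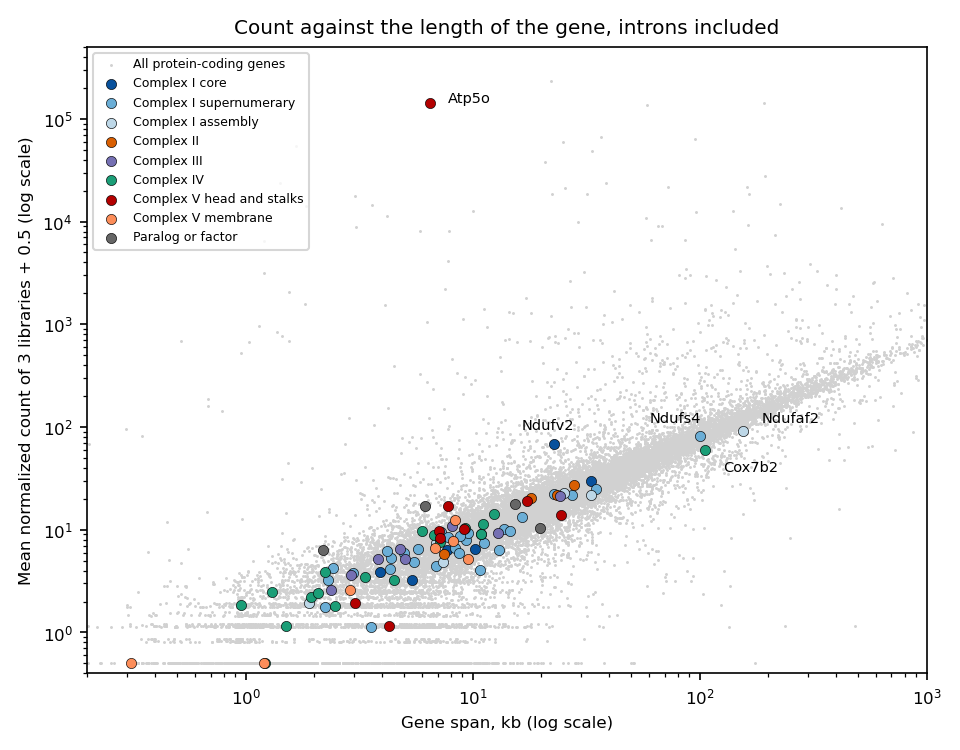
Mean normalized count of the 3 libraries plus 0.5 against gene span in kilobases, both on log scales, for all protein-coding genes (grey) and 92 of the 93 genes, coloured by complex. The coloured points lie within the grey band, which rises with span, except Atp5o far above it, and Ndufv2 lies at its upper edge.

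The fold changes moved with base composition. Over the 49 tested genes without Atp5o, the Spearman correlation of transcript GC content with the log2 fold change was 0.47. Among genes whose mean count reached 20, it was 0.42 over 14 of the 49 and 0.64 over 9084 protein-coding genes. The 14 tested genes under 45% GC had a median log2 fold change of -0.47, with 3 above 0 and 11 below, and the 14 from 45% to 50% had -0.34. The 21 at 50% GC or more had a median of 0.39, with 14 above 0 and 7 below. Over all tested genes 9023 were above 0 and 8564 below, and these were not counted by GC band. Ndufa4, under 45% GC, passed the filter on low counts through IgG-IP alone, and Uqcrc1, above 50%, through Flag-IP alone. The splits by band therefore depend in part on the filter, and nothing is drawn from them. With the GC trend removed, Ndufv2 and Atp5o were still higher, with log2 fold changes of 2.32 and 1.39, and no gene was lower (2.38% and 1.87% of all tested genes were then called higher and lower). The correction for Atp5o used the GC content of a gene to which its counts cannot be assigned, so nothing is drawn from it. Cox7b2 and Ndufab1 were then no longer called, with the values given above. Ndufv2, at 42.0% GC, was among the 3 genes above 0 in the band under 45% GC.

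**Figure D4:**
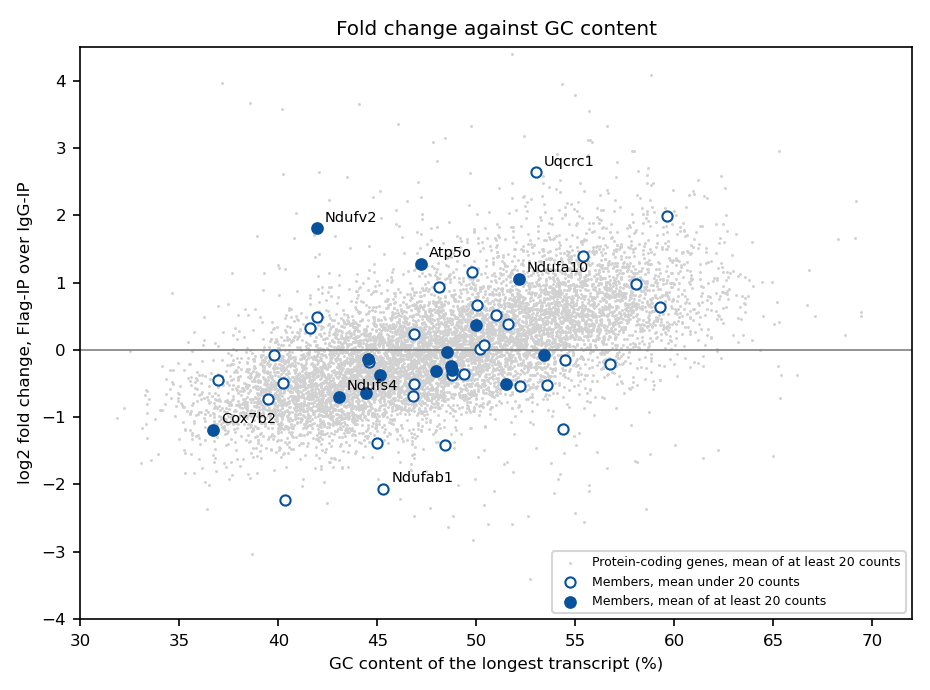
Log2 fold change of Flag-IP over IgG-IP against the GC content of the longest transcript, for protein-coding genes whose mean count reached 20 (grey) and 48 tested genes (circles, filled on the same condition; Ndufa4l2 left out). The grey cloud and most circles rise with GC, and Ndufv2 stands above the cloud at 42.0% GC.

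Genes around the complexes were read from lists outside the rule. For each list, 5.58% of all tested genes called higher and 5.77% called lower are the background. The list calls come from the fit without the GC trend removed. Of 41 other assembly factors, 37 were in the table and 21 were tested, with 1 higher and 4 lower. Taco1, which activates translation of a complex IV subunit, had 52, 49 and 20 counts and a log2 fold change of 1.46 ± 0.45 (SE). Atpaf2, an assembly factor of the ATP synthase head, had 294, 238 and 1617 counts and fell by 2.46 ± 0.21 on the log2 scale (SE). Its companion Atpaf1 (33, 30 and 71 counts), the complex I factor Nubpl (92, 115 and 255) and the complex IV factor Cox16 (90, 86 and 185) were also lower. In each of these 4 both Flag-IP libraries were low and IgG-IP high.

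Of 16 tested electron carriers and ubiquinone synthesis genes 1 was higher, Adck4, with 38, 43 and 16 counts, and 0 were lower. None of 14 tested tricarboxylic acid cycle genes was called by edgeR (1 was lower at an unadjusted p under 0.05), and their median log2 fold change was -0.09. Of 6 tested carriers and uncoupling proteins 2 were higher, the outer membrane channel Vdac1 (31, 41 and 11 counts) and the uncoupling protein Ucp2 (12, 11 and 0). Of 16 tested regulators of mitochondrial gene expression 3 were lower. They were the coactivator Ppargc1a (49, 70 and 118 counts), the GABP subunit Gabpa (8, 9 and 35) and Tfb1m (10, 20 and 52). Closest to the threshold among the list calls were Ucp2, Atpaf1 and Ppargc1a (adjusted p = 0.0493, 0.0487 and 0.0424, edgeR). The log2 fold change of Ucp2 had an SE of 2.38. Ucp2 passed the filter on low counts through Flag-IP alone and Gabpa through IgG-IP alone, in each case where the gene was high. The 13 protein genes of the mitochondrial genome were all lower in Flag-IP in edgeR's test, with a median log2 fold change of -1.33, and the 38 tested nuclear subunits of complexes I, III, IV and V had a median of -0.11. Median transcript GC content was 37.1% for the 13 mitochondrial genes and 48.6% for the 38 nuclear ones, and these fold changes are without GC correction. The difference between the median fold changes was not tested, nor was the part of GC content in it.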

How the data were processed

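RNA from Flag and IgG immunoprecipitates was sequenced in 3 libraries. The deposited table gives the authors' raw counts per Ensembl gene, with no normalization. Per the submitters' processing notes, CASAVA 1.7, Bowtie 0.12.2 and the build mm8 were used. Which program counted the reads, on which annotation and with what strand rule, is not given in the sources used here, so overlapping and antisense genes are uncertain. A deposited list of lipid genes was not used here. Positions, spans, overlaps and GC come from GENCODE M21 (GRCm38), matched by identifier for 37693 of 39179 rows. None are in mm8.

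Counts were tested with edgeR 4.0.16 (R 4.3.3) on genes kept by filterByExpr, with TMM factors of 0.840, 0.936 and 1.27. The common dispersion was 0.0359, with 1 residual degree of freedom, and edgeR estimated infinite prior degrees of freedom throughout, so errors rest on the spread common to all genes. The standard error is the fold change divided by the square root of F. Normalized counts are counts over the effective library size, times the mean effective size. Ratios carry exact 95% intervals of counting error. Tested on simulated counts of 16340 genes for this comparison, the fit recovered median log2 changes of 1.01 for 2-fold and 1.99 for 4-fold genes and called 0% and 20.2% of them. Only 98 and 94 of these genes were changed, and all were given the common dispersion. In the real libraries 981 genes were called higher and 1015 lower, so the simulated shares called need not hold there. DESeq2 1.42.0 and other scalings, filters and trend corrections were the alternatives.

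Genes and lists were chosen with earlier results of these data known. Named are the called genes; per complex, the 3 with the highest counts and the extreme fold changes among genes whose mean reached 20 counts; isoform pairs; genes in the overlaps described; the Sdh genes; and members that are no subunit. Uqcrc1, Ndufa4, Ndufs7, Ndufa10 and the list genes were added after their values were seen, as were the untested genes given with counts. The values of 1 gene are not reported here.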

Additional observations from a re-analysis of the deposited data

How the results depend on the processing

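With 1 IgG-IP library and counts mostly under 10, differences in most of these genes were not detectable at this depth, and the calls rest on 4 genes. The number higher (2 in the analysis reported) was 4 with a likelihood ratio test on the common dispersion, 1 with DESeq2 and 1 with the gene span trend removed, an alternative chosen after seeing the data. The number lower (2) was 1 with upper-quartile scaling, 1 among the 5 genes whose mean reached 50 counts, 0 with DESeq2, 0 with the GC trend removed and 0 with GC and transcript length trends removed. It was 3 with library totals (Ndufs4 added) and 3 with the likelihood ratio test (Ndufa4 added). Adjusted p was missing for 48 of the 50 genes in DESeq2. Ndufv2 was called in every edgeR setting run with a test. Leaving out a Flag-IP library left 1 against 1 library and no residual degrees of freedom, so it gave values with no test. Calls without 1 library were therefore not run.

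The median log2 fold change (-0.14) was -0.66 with library totals, where that of all tested genes moved from 0.03 to -0.48. It was -0.070 with upper-quartile scaling, 0.10 with no filter (90 genes), -0.21 for a mean of 50 counts or more, -0.073 with the GC trend removed, -0.055 with GC and length trends removed and -0.55 with the span trend removed. The medians of all tested genes in these settings, in the same order, were 0.099, 0.13, 0.0065, 0.026, 0.036 and -0.10. Leaving out a Flag-IP library gave -0.20 to -0.11. Over the named genes, 265 tested alternative values kept their direction and side of the threshold, 6 lost a call, 3 gained one and 21 changed sign, all of the latter in genes that were not called. With the GC trend removed, and with GC and length trends removed, these were Atp5d at -0.14 and -0.089, Atp5f1 at 0.33 and 0.33, Atp5j at -0.066 and -0.0034, Atp5s at 0.12 and 0.16 and Ndufaf5 at 0.20 and 0.26. With library totals they were Atp5j at -0.42, Cox5a at -0.18, Cox6c at -0.28, Cox7b at -0.027 and Ndufaf6 at -0.15. With the span trend removed they were Atp5j at -0.53, Cox5a at -0.27, Cox6b1 at -0.081, Cox6c at -0.35 and Cox7b at -0.10, and with upper-quartile scaling Sdha at 0.036. The causes of these shifts were not tested. No paired analysis was possible because the groups share fewer than 2 replicate numbers.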

Other observations

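Low counts in the deposited table were more often even than odd. Of 139 counts from 1 to 9 in the nuclear oxidative phosphorylation genes 111 were even, or 79.9%, against 70.3% of 32408 such counts over all genes. For counts of 100 to 999 over all genes the share by library was 49.9%, 49.8% and 51.5%, in the order used above. The counting intervals in the text treat each count as independent, and whether reads were counted in pairs is not given in the sources used here.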
